A study of Mus musculus with 12 samples.

Results

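A set of H3K9me3 regions was covered by a peak in every one of the 6 lists called over input, namely those of control and Alb-D2KO liver at 3 ages (P1, P5 and adult). These constitutive regions, called members here, were chosen by the presence of a listed peak, so their coverage in the 6 lists is given as a description and not as a finding. The selection kept autosomal bases that lay in a peak of all 6 lists, in continuous intervals of at least 500 bp. It found 35874 members, beside 230455 regions of that length covered by at least 1 list. The strain is C57BL/6 in the labels and C57BL/6J in the methods. Control animals carry the name Cre in the sample titles. Alb-D2KO animals combined a floxed Dio2 gene, encoding the D2 deiodinase that activates thyroid hormone, with Cre recombinase driven by the albumin promoter. The methods describe the inactivation as specific to hepatocytes, and the peak lists do not show which liver cells kept the gene. The 12 samples were 6 H3K9me3 libraries and 6 inputs, with 1 library for each genotype, age and library type. For P1 and P5 the chromatin of 3 livers was pooled, whereas adult livers were processed one by one. The methods describe several such pools per genotype for P1 and several adult livers. Whether the P1 pools were merged before peak calling is not given in the sources used here. Each adult list is named for 1 numbered sample over the input of the same number. Age thus goes together with pooling in these lists. The lists hold no read counts, so the depth of the libraries is unknown. With 1 library per group, no comparison between groups has a replicate check.

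H3K9me3 is the histone mark of constitutive heterochromatin. It is written by SUV39H enzymes at pericentromeric satellite repeats, and by SETDB1 at interspersed repeats, where the corepressor TRIM28 is recruited by zinc finger proteins that carry a KRAB domain. Many endogenous retroviruses are held silent in this way, and the clustered genes for the zinc finger proteins themselves are known to carry the mark in many cell types.

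Both zinc finger exons and repeats were found in the set. Below are stretches of 120 bases of coding sequence that lay inside members, taken from the 6 zinc finger genes with the most bases in members where such a stretch existed. They are printed from 5′ to 3′ on the coding strand from the GRCm38 (mm10) reference. Capitals mark the letters that encode the linker between neighbouring zinc fingers, searched as AC, GG, GA and AA, each followed by any base, and then CC.
Zfp808 (chr13:62172340-62172459, plus strand): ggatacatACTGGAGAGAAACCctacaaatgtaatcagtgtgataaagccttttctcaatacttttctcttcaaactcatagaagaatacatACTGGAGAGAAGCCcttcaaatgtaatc
Zfp936 (chr7:43189868-43189987, plus strand): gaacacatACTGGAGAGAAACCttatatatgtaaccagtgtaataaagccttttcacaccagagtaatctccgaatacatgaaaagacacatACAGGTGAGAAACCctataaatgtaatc
Zfp943 (chr17:21992533-21992652, plus strand): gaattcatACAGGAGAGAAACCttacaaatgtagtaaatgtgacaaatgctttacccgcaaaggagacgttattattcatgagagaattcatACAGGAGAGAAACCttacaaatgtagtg
Zfp984 (chr4:147755501-147755620, minus strand): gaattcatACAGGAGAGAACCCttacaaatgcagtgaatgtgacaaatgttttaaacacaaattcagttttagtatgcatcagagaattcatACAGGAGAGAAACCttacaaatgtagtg
In each of the 4 stretches the marked linkers were spaced 84 bases apart, the repeat unit of a zinc finger. Searched on both strands, this motif was found in 394 of the 35874 members, or 1.10% (95% Wilson interval 0.996 to 1.21). Of all autosomal windows of 1 kb, 0.210% held it. The windows are not a match in width, and among members of 900 to 1100 bp the motif was found in 11 of 4434, or 0.248% (0.139 to 0.444), an interval that includes the value of the windows. Of the 394 members with the motif, 269 were of 5 kb or more. Counted per length, members held 59.3 linkers per Mb, and all autosomal windows held 3.73 per Mb. Intervals here and below cover counting error only, since neighbouring members are not independent.

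The 6 lists covered 959.4 Mb of the autosomes together, which was 40.0% of the sequenced bases. Coverage by all 6 lists concerned 66.5 Mb in 80328 intervals of any width. The members kept 84.9% of that length and 44.7% of the intervals, and they amounted to 56.5 Mb or 2.36% of the sequenced autosomal bases. Just outside the length limit, 2854 intervals of 450 to 499 bp had a median of 1.46 for the lowest listed −log10 p over the 6 lists. Just inside it, the 2659 intervals of 500 to 549 bp had a median of 1.47. A further 107 Mb was covered by 5 of the 6 lists. The missing list was the adult Alb-D2KO list for 30.6 Mb and the adult control list for 29.5 Mb, and any of the neonatal lists for 9.50 to 14.1 Mb each. The adult lists were also the shortest, with 396 Mb in control and 382 Mb in Alb-D2KO, against 461 to 498 Mb in the neonatal lists. The adult lists thus set the limit of the constitutive set more often than the neonatal lists.

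Members took up 11.3% to 12.2% of the length of each neonatal list, 14.3% of the adult control list and 14.8% of the adult Alb-D2KO list. They were held by 10.2% to 10.9% of the autosomal peaks of each list. The holding peaks were long, with a median length of 3041 to 4892 bp over the lists, against 733 to 924 bp for the other peaks. Their median fold enrichment, the authors' linear ratio of library over input, lay between 1.93 and 1.97, against 1.75 to 1.83 for other peaks. These peak values belong to the selection and are given without a test. Few of the holding peaks passed a q-value of 0.05, 0.756% to 0.886% of them in each list, against 0.110% to 0.157% of the other peaks.

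Each member took the fold enrichment of the whole peak that held it in a list, so members in the same peak share a value. Counted once per member, these peak values had close medians in both genotypes. The median over members was 1.97 in both genotypes at P1, 1.95 in control and 1.96 in Alb-D2KO at P5, and 1.99 in both genotypes in the adult. On the log2 scale, the median difference (Alb-D2KO minus control) was -0.00016 for P1, 0.0075 for P5 and -0.00043 for adult livers. The span from the 5th to the 95th percentile of that difference was -0.19 to 0.19 for P1, -0.18 to 0.19 for P5 and -0.21 to 0.20 for adult livers. The difference passed 1 on the log2 scale in favour of Alb-D2KO in 0 (P1), 1 (P5) and 2 (adult) members. It passed the same limit in favour of control in 3, 2 and 0 members, respectively. The rule asked for a listed peak in both genotypes at each age, which bounds these differences. They are therefore given as a description and not as a comparison of the genotypes. As a description across the 35874 members, which share peaks, the Spearman correlation of fold enrichment between genotypes was 0.40 in P1, 0.40 in P5 and 0.49 in adult livers. Between a P1 and a P5 list it was 0.36 to 0.38, and between a neonatal and an adult list it was 0.11 to 0.22.

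Most members lay outside genes and in repeats. Of the 35874 members, 23.6% (23.2 to 24.0) overlapped an annotated gene body, against 49.8% of all autosomal windows of 1 kb. Among regions of at least 500 bp covered by exactly 1, 2, 3, 4 and 5 lists, this share was 41.9%, 33.5%, 27.2%, 22.6% and 21.5%. It therefore fell up to 5 lists and was higher in the constitutive set than in the regions of 5 lists. Widths were not matched, and among members of 900 to 1100 bp it was 22.4% (21.2 to 23.7), an interval that includes 21.5%. Counted by bases, 72.6% of the members' length was intergenic, 24.6% intronic, 0.697% coding and 0.889% UTR. Over all sequenced autosomal bases, the corresponding values were 51.6%, 43.3%, 1.46% and 1.62%. Coding bases showed the same turn, with 0.366% of the bases in exactly 5 lists and 0.636% of those in all 6.

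Soft-masked letters of the reference, which mark interspersed and simple repeats, rose with every added list. Such letters made up over 50% of 24.8%, 32.6%, 36.8%, 40.5% and 51.3% of the regions in exactly 1 to 5 lists, and of 63.4% (62.9 to 63.9) of the members. All windows of 1 kb gave 21.1%. The central 50 bases were present more than once in the genome in 44.6% (44.1 to 45.1) of members, in 33.2% of regions of 5 lists, in 10.6% of regions of 1 list and in 10.6% of windows. In 8729 members, or 24.3%, the centre had over 100 copies. Reads from these stretches cannot be placed by sequence alone, how such reads were treated is not given in the sources used here, and the part of this in the presence of a peak was not tested. The remaining 55.4% of members had a centre present once. Regions in fewer lists can adjoin members where peak edges differ between lists, and they were narrower, with medians of 689 to 782 bp against 991 bp.

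**Figure D1:**
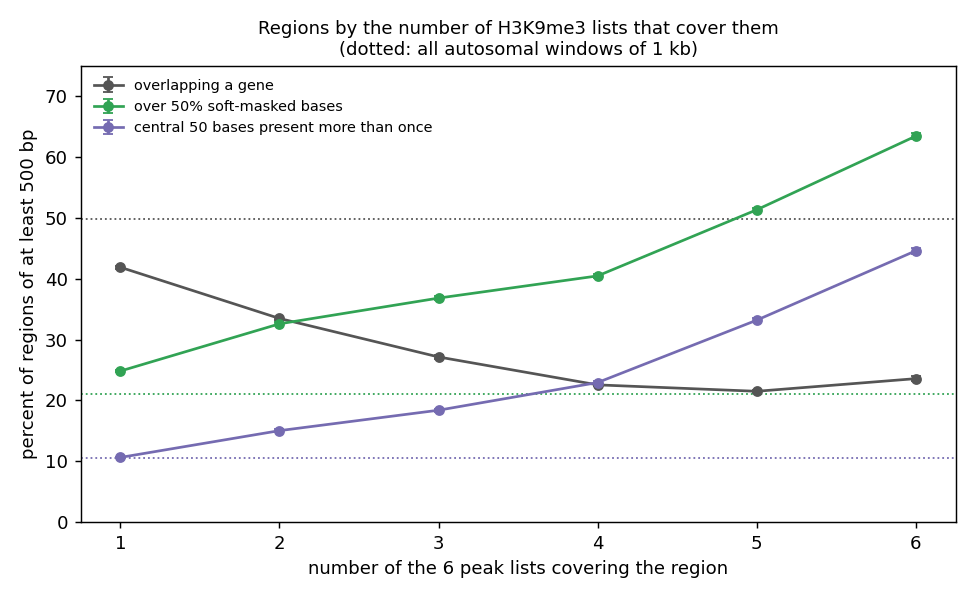
Percent of regions of at least 500 bp (vertical axis) that overlapped a gene, had over 50% soft-masked bases or had a central 50 bases present more than once, by the number of H3K9me3 lists covering them (horizontal axis). Bars are 95% Wilson intervals and dotted lines give all autosomal windows of 1 kb. The share with a soft-masked majority goes from 24.8% at 1 list to 63.4% at all 6, while the share overlapping a gene falls to 21.5% at 5 lists and stands at 23.6% at 6. The regions are not matched in width.

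Base composition had its lowest values at 4 lists. GC content was 41.9% over all autosomal bases, and it was 37.0%, 37.2% and 38.3% in bases of exactly 4, 5 and 6 lists. CpG dinucleotides numbered 8.51 per kb over all bases, and 5.26, 5.83 and 6.94 per kb in bases of exactly 4, 5 and 6 lists.

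Retroviral repeats were examined through the site at which a transfer RNA primes reverse transcription, because the deposited lists do not name repeats. Each search sequence was TGG followed by the reverse complement of the last 15 bases of a mouse tRNA gene, read from the RefSeq annotation, and this search was chosen after the repeat content had been seen. The tRNAs for phenylalanine and proline are the textbook primers of intracisternal A particles and of murine leukaemia virus relatives, respectively. Below are the most frequent sequence for phenylalanine, for proline and for lysine, printed as searched.
tRNA-Phe: TGGTGCCGAAACCCGGGA
tRNA-Pro: TGGGGGCTCGTCCGGGAT
tRNA-Lys: TGGCGCCCAACGTGGGGC
The phenylalanine sequence had 985 exact matches on the autosomes, of which 131 lay in members, or 13.3% (11.3 to 15.6). The proline sequence had 114 matches with 22 in members, or 19.3% (13.1 to 27.5). The lysine sequence had 62 matches with 16 in members, or 25.8% (16.6 to 37.9). This was the highest share among the 13 sequences with at least 50 matches. The next lysine sequences by number had 7 of 51 matches (13.7%, 6.81 to 25.7), 0 of 34 and 2 of 9 in members. Members held 2.36% of the sequenced autosomal bases. Of the matches to the phenylalanine, proline and lysine sequences, 91.8%, 97.4% and 96.8% lay in at least 1 list. Of the 13 sequences with at least 50 matches, these were the first, the eighth and the tenth by number. An isoleucine sequence with 588 matches had 6.63% (4.89 to 8.94) in members, and a leucine sequence with 553 matches had 10.5% (8.20 to 13.3). Lower shares were found for other tRNAs, such as 1.18% (0.325 to 4.21) of 169 matches for the most frequent glycine sequence and 2.47% (0.680 to 8.56) of 81 for the most frequent glutamine sequence. Over all 124 sequences searched there were 3673 matches, of which 360 or 9.80% lay in members. A match is not evidence of an intact element.

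Members were mostly short, with a median width of 991 bp and quartiles of 691 and 1652 bp, and a small long class stood beside them. The 105 members of 20 kb or more were 0.293% of all members and held 6.38% of their length. Of these long members, 88.6% (81.1 to 93.3) overlapped a gene, against 22.7% of the members under 5 kb, though a longer region meets a gene more easily. A soft-masked majority was found in 32.4% (24.2 to 41.8) of the long members and in 63.4% of those under 5 kb. Linker motifs were present in 80 of the 105, at 287 per Mb, compared with 11.5 per Mb in members under 5 kb. Chromosomes 4 and 13 carried 26 long members each, chromosome 5 carried 17 and chromosome 7 carried 5. Of the 105, 30 (28.6%) overlapped a zinc finger gene of the list used here, against 0.889% of all members, again without a match in width. The motif was counted anywhere in a member, not in coding sequence alone.

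The 5 longest members lay in zinc finger gene clusters on chromosomes 4 and 7. The longest ran from 147282609 to 147406252 on chromosome 4 (123644 bp) across Zfp988 and Zfp978, with 18 linkers. Its holding peak had a fold enrichment of 2.65, 2.89 and 2.91 in control at P1, P5 and adult, and of 2.66, 2.85 and 2.95 in Alb-D2KO. The next, from 147449869 to 147558788 (108920 bp), covered parts of Zfp982, Gm16503 and Zfp985. It had fold enrichments of 2.38, 2.58 and 2.68 in control and 2.52, 2.62 and 2.77 in Alb-D2KO at P1, P5 and adult. The Zfp936 member on chromosome 7, from 43121965 to 43205457 (83493 bp), held 23 linkers and had fold enrichments of 2.43, 2.55 and 2.51 in control and 2.55, 2.56 and 2.63 in Alb-D2KO. The Zfp980 member of chromosome 4, from 145641371 to 145722505 (81135 bp), had 2.49 to 2.76. The Zfp992 and Zfp981 member, from 146434087 to 146503145 (69059 bp), had 2.79 to 3.26. In 4 of the 5 members fold enrichment was lowest at P1 and highest in the adult in both genotypes, and the exception was the Zfp936 member in control. These are values of whole holding peaks, which differed in extent between lists, from 123715 to 303671 bp for the longest member. The 95th percentile over all members was also higher in the adult lists (2.37) than in the neonatal lists (2.24 to 2.25). Age goes together with pooling, and this order was not tested. The central 120 bases of 4 of the 5 longest members are given below on the plus strand, to show the letters in the middle of such members, which are annotated as intron or noncoding exon. The centre of the fifth overlapped a UTR and is not shown.
Zfp988 and Zfp978 member (chr4:147344371-147344490, plus strand): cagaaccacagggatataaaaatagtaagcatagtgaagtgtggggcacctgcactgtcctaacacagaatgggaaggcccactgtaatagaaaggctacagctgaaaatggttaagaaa
Zfp982 and Zfp985 member (chr4:147504269-147504388, plus strand): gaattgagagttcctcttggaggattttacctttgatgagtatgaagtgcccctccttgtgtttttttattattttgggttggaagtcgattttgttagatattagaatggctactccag
Zfp936 member (chr7:43163651-43163770, plus strand): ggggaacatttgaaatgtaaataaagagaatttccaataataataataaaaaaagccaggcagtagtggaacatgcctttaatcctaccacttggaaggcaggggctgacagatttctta
Zfp980 member (chr4:145681878-145681997, plus strand): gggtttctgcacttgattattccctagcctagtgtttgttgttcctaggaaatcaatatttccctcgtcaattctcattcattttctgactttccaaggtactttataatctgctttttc
The central 50 bases were found once in the genome for the members at Zfp982, Zfp936 and Zfp980, 5 times for the longest member and 4 times for the Zfp992 and Zfp981 member.

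The members with the strongest listed significance were of another kind. Ranked by the lowest −log10 p over the 6 lists, the first 5 lay near the start of chromosome 9 (3) and on chromosome 2 (2), and their lowest −log10 p was 265 to 421. The members of chromosome 9 and of chromosome 2 differed in fold enrichment. In the 4 neonatal lists the 3 of chromosome 9 had 2.45 to 3.17, above the 95th percentile of all members in each list (2.24 to 2.25), and in the adult lists they had 2.01 to 2.28, below it (2.37). The highest values were those of the second member, from 3023452 to 3026019 at Gm10718, with 2.86, 3.17 and 2.01 in control and 3.13, 3.10 and 2.07 in Alb-D2KO at P1, P5 and adult. The first, from 3000296 to 3004789 on chromosome 9 at Gm10722, had fold enrichments of 2.45, 2.61 and 2.01 in control at P1, P5 and adult, and of 2.58, 2.64 and 2.03 in Alb-D2KO. The third, from 98666264 to 98667276 on chromosome 2 at Gm10800, had 1.77, 1.99 and 1.46 in control and 1.89, 2.05 and 1.52 in Alb-D2KO. In all 3 of these members the adult values lay under all neonatal values. The peaks holding the Gm10718 member were 14843 to 14851 bp long in the neonatal lists and 2570 and 2568 bp in the adult lists. Unlike stretches are thus compared there. The central 120 bases of all 5 are given below on the plus strand, as the sequences with the strongest listed significance.
Gm10722 member (chr9:3002483-3002602, plus strand): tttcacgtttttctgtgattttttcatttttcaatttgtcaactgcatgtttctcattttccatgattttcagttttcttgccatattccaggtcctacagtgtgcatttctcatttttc
Gm10718 member (chr9:3024676-3024795, plus strand): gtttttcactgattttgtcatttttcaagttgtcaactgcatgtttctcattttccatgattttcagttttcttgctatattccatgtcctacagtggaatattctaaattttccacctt
Gm10721 member (chr9:3015393-3015512, plus strand): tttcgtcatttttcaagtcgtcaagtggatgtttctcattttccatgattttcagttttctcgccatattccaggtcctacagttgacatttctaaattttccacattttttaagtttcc
Gm10800 member (chr2:98666710-98666829, plus strand): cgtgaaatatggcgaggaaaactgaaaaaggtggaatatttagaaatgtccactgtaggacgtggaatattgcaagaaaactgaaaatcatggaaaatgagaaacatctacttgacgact
Gm10801 member (chr2:98662451-98662570, plus strand): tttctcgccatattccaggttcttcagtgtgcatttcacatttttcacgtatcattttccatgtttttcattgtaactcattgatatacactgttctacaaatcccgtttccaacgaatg
In 4 of the 5, the distance at which most bases equalled the base further on was 234 bp, among distances of 50 to 400 bp, with 52.1% to 76.3% of bases equal. That distance is the unit of the mouse major satellite, the tandem repeat of pericentromeric heterochromatin. The Gm10801 member (524 bp) gave 120 bp instead, with 52.5% of bases equal. In all, 33 members with a summed length of 63.95 kb had at least 50% equal bases at a distance of 225 to 244 bp. The number of copies of such repeats in these animals was not measured, and its part in these values was not tested.

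Zinc finger genes and some receptor and adhesion gene families held members more often than protein-coding genes at large. Of the 20807 autosomal protein-coding genes of the reference annotation, 1907 had at least 1 bp in a member, which is 9.17% (8.78 to 9.56), and 1.11% of all gene-body bases lay in members. Zinc finger genes, defined by symbol, had a member in 141 of 415, or 33.98% (29.6 to 38.7), with 14.1% of their gene-body bases. Their symbols begin with Zfp and a number, Zkscan or Zscan, so zinc finger genes under other names are not counted. Vomeronasal receptor genes, which encode pheromone receptors, had a member in 136 of 329, or 41.3% (36.1 to 46.7), with 13.4% of bases. Clustered protocadherins, cell adhesion proteins of neurons, had a member in 21 of 57, or 36.8% (25.5 to 49.8), with 10.9% of bases. Cytochromes P450 had one in 24 of 100 (24.0%, 16.7 to 33.2) with 4.30% of bases. Olfactory receptors had one in 145 of 1128 (12.9%, 11.0 to 14.9) with 2.16% of bases. These genes differ in length, with medians of 17.1 kb for zinc finger genes, 10.3 kb for vomeronasal receptors, 90.3 kb for protocadherins, whose annotated bodies overlap, and 17.6 kb for all protein-coding genes.

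A transcription start in a member was rarer. It was found for 232 protein-coding genes, or 1.12% (0.981 to 1.27). Zinc finger genes had 46 such starts of 415 (11.1%, 8.41 to 14.5), vomeronasal receptors 32 of 329 (9.73%, 6.97 to 13.4) and olfactory receptors 37 of 1128 (3.28%, 2.39 to 4.49). In the deposited annotation of the peaks, 7.05% to 9.10% of the holding peaks of a list were assigned to a transcription start, against 3.15% to 3.59% of the other peaks. The holding peaks were longer, so the comparison is not one of equal widths. Intergenic assignments made up 70.5% to 72.9% of holding peaks and 63.8% to 66.0% of others, and intron assignments 12.4% to 13.2% and 21.9% to 23.1%.

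The families differed in how much of their coverage was constitutive. Zinc finger gene bodies were covered over 23.0%, 25.1% and 27.9% of their bases in control at P1, P5 and adult, and over 23.2%, 24.6% and 27.6% in Alb-D2KO. Of the zinc finger bases in a list, 50.6% to 61.5% lay in members. Olfactory receptor genes were covered more widely at the neonatal ages, over 42.6%, 40.7% and 25.7% in control and 43.7%, 43.0% and 23.7% in Alb-D2KO, but only 4.93% to 9.10% of the covered bases lay in members. Vomeronasal receptor genes were covered over 65.5%, 64.3% and 46.3% in control and 66.2%, 65.1% and 45.0% in Alb-D2KO, and 20.2% to 29.7% of those bases lay in members. Over all protein-coding genes 8.45% to 10.1% of bases were covered, and 11.0% to 13.1% of those lay in members. Coverage of both receptor families was lower in both adult lists than in the 4 neonatal lists, whereas that of zinc finger genes was higher.

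**Figure D2:**
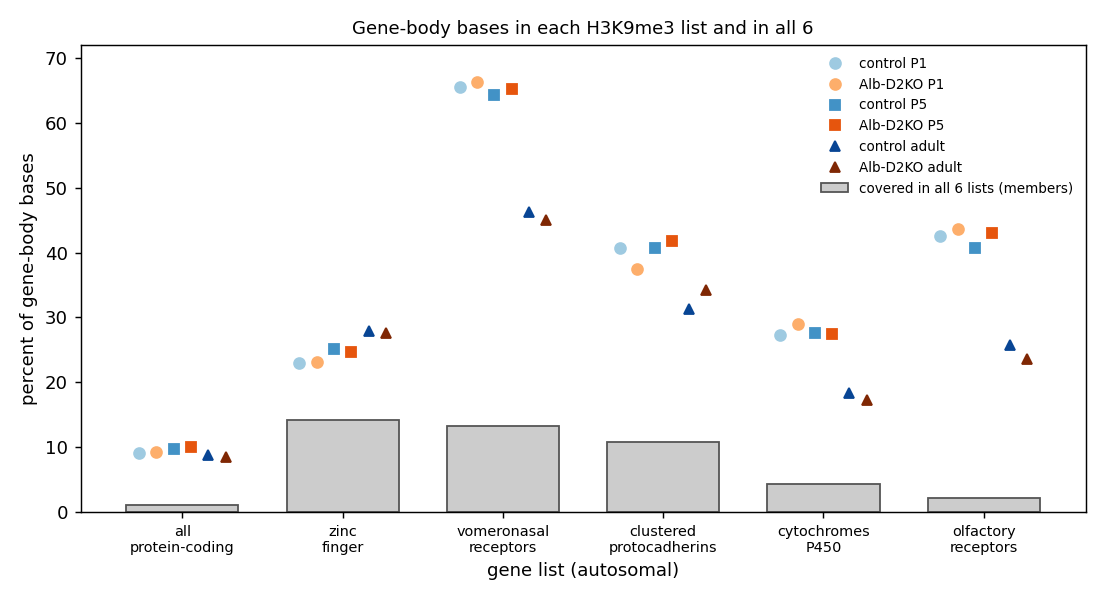
Percent of gene-body bases (vertical axis) of 6 autosomal gene lists (horizontal axis) covered by peaks of each of the 6 H3K9me3 lists (points, 1 library each) and by members (grey bars). Zinc finger genes have 23.0% to 27.9% of their bases in a list and 14.1% in members, whereas olfactory receptor genes have 23.7% to 43.7% in a list and 2.16% in members.

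Within zinc finger genes, members lay over coding sequence more than over introns. Of the coding bases of the 415 genes, 21.3% lay in members, against 15.8% of UTR bases and 13.6% of intron bases. In the 141 genes with a member these shares were 67.8% of coding bases, 53.6% of UTR bases and 34.4% of intron bases. These genes were picked by having a member, so both groups hold the same member bases and the second adds no separate support. Over all protein-coding genes no such order was seen, with 1.15%, 1.29% and 1.12%, and in vomeronasal receptor genes the coding share was lower than the intron share (10.3% and 14.7%).

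**Figure D3:**
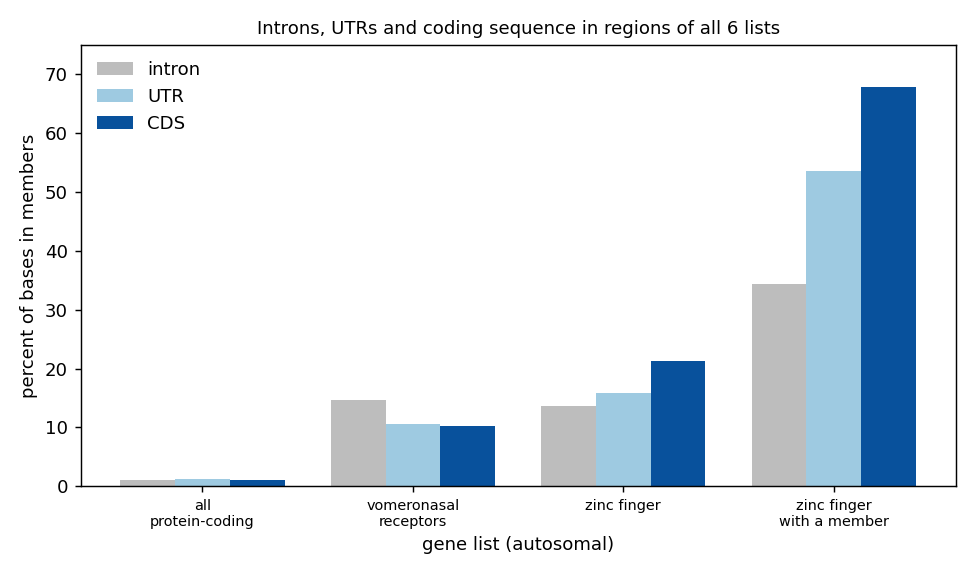
Percent of intron, UTR and coding (CDS) bases lying in members (vertical axis) for all protein-coding genes, vomeronasal receptors, the 415 zinc finger genes and the 141 zinc finger genes with a member (horizontal axis). Coding sequence stands above introns in both zinc finger groups, at 21.3% against 13.6% and at 67.8% against 34.4%. Both groups hold the same member bases, since the 141 genes were picked by having a member.

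Zinc finger genes in clusters had members more often than single ones. Of 121 genes with no other zinc finger gene of the list within 500 kb, 20 had a member (16.5%, 11.0 to 24.2). Of 137 genes with 6 or more such neighbours, 62 did (45.3%, 37.2 to 53.6). Genes with 1 to 2 neighbours and with 3 to 5 neighbours lay between these, at 32.4% and 41.6%. Neighbouring genes can share a member and are not independent, and this division was chosen after the clusters had been seen. Chromosomes 7, 13 and 17 had 24 zinc finger genes with a member each, of 105, 41 and 47, and chromosome 4 had 21 of 32. None was found on chromosomes 1, 6, 14, 15 and 16, where 42 genes of the list lie. In all, 172 protein-coding genes had over 50% of their body in members, of which 59 were zinc finger genes of the list and 62 had only a Gm model symbol.

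Zfp808 (ENSMUSG00000074867.4, chromosome 13, 62129886 to 62236144) had 74.9 kb in members, 70.5% of the gene. Peaks covered 87.03%, 89.4% and 94.1% of it in control at P1, P5 and adult, and 89.3%, 90.5% and 95.8% in Alb-D2KO. Zfp936 (ENSMUSG00000064194.10, chromosome 7, 43114229 to 43192109) had 72.3 kb in members, 92.8% of the gene, with coverage of 94.98% to 100% over the lists. Zfp935 (ENSMUSG00000055228.8, chromosome 13, 62453715 to 62558511) had 62.3 kb in members, and its coverage was 80.8% to 86.5% in the neonatal lists and 95.1% and 99.0% in the adult lists. These genes have close paralogs, so reads may be shared between copies and the values are uncertain to that extent.

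The other genes with the most bases in members were long or clustered. Gm42416, Gm37013 and Gm37388 of chromosome 18 had 183, 180 and 179 kb in members, but these models overlap one another and span the protocadherin clusters, so they count the same regions. Pcdha1, Pcdha2 and Pcdha3, of the same locus, had 59.2, 54.0 and 51.6 kb. C130026I21Rik of chromosome 1 had 143 kb in members, 51.3% of the gene, with peaks over 70.0% to 88.6% of it. Sntg1, which encodes a syntrophin, had 137 kb in a gene of 938 kb, or 14.6%. Obox3 and Obox1, oocyte-specific homeobox genes of chromosome 7, had 79.6 and 73.3 kb, and Obox1 was covered over 91.6%, 96.1% and 59.7% in control and 98.4%, 93.1% and 81.4% in Alb-D2KO at P1, P5 and adult.

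Skint5, of an immunoglobulin-like gene family expressed in thymus and skin, had 119 kb in members, 22.9% of the gene. Its coverage was 76.0%, 70.4% and 48.5% in control and 88.2%, 92.1% and 61.5% in Alb-D2KO at P1, P5 and adult. The Alb-D2KO value was higher at each age, with 1 library per group and no test.

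Among receptors, Vmn2r60, Vmn2r57 and Vmn2r58 of chromosome 7 had 31.4, 23.1 and 20.8 kb in members, which was 35.5%, 43.8% and 56.4% of the genes. Olfr138, Olfr461 and Olfr164 had 7.52, 5.65 and 5.10 kb. Among cytochromes P450, the oxidases of drug and lipid metabolism, Cyp2c38 had 16.2 kb (22.0% of the gene), Cyp2j8 had 14.5 kb (23.1%) and Cyp2c66 had 12.9 kb (17.6%). Cyp2c38 was covered over 63.6%, 83.1% and 62.2% in control and 78.9%, 81.7% and 49.0% in Alb-D2KO. No P450 gene had a transcription start in a member. The receptor and P450 families hold many similar copies, and reads may be shared between them.

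No listed hepatocyte gene held a constitutive region, but the list is too short to set this apart from the 9.17% of all protein-coding genes. Of 14 hepatocyte markers 0 had a member (upper bound 21.5%), and peaks covered 0.293% to 2.35% of their bases in a list. Alb itself, the source of the promoter of the Cre, had no member, and it had 5.83% of its body in a peak in Alb-D2KO at P1, 1.33% in Alb-D2KO at P5 and 0% in the other 4 lists. Dio2, the targeted gene, had no member, and 4.59% of it lay in a peak in control at P1 and 0% elsewhere, so the lists do not show the deletion. None of 13 thyroid hormone genes (upper bound 22.8%) and none of 39 Hox genes (upper bound 8.97%) had a member, and Hox genes had at most 0.0639% of their bases in a list. Markers of blood cells (8), endothelium (4), cholangiocytes (4) and Kupffer cells (4) also had none, and 1 of 4 stellate cell markers did, Reln, with 4.57 kb of 460 kb, in lists too small to compare with that share. A peak list of a closed-chromatin mark does not measure expression, and it cannot tell which cells of the liver carry the mark.

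For the remaining lists the shares had intervals that include the 9.17% of all protein-coding genes. Of 33 imprinted genes 4 had a member (12.1%, 4.82 to 27.3), namely Kcnq1ot1 with 17.6 kb (18.9% of the gene), Rasgrf1 with 2.71 kb, Airn with 2.28 kb and Snrpn, and none had one over a transcription start. Kcnq1ot1, a noncoding RNA gene of an imprinted cluster, was covered over 29.3% to 38.8% in the lists. Of 14 germline genes 1 had a member (7.14%, 1.27 to 31.5), Sycp1, of the synaptonemal complex, with 3.86 kb. Of 20 genes for writers, readers and erasers of the mark 1 had a member (5.00%, 0.888 to 23.6), Atf7ip, a partner of SETDB1, with 4.07 kb, or 3.89% of the gene. Over all 51229 annotated autosomal genes 6.78% had a member. By class, a member was found in 10.1% of 5209 lincRNA genes, 3.71% of 8924 processed pseudogenes and 16.8% of 1789 unprocessed pseudogenes.

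Members were unevenly spread. They covered 4.38% of the sequenced bases of chromosome 7, 3.88% of chromosome 13, 3.69% of chromosome 17, 3.33% of chromosome 4 and 3.11% of chromosome 5, against 0.888% of chromosome 11 and 1.11% of chromosome 19. The order was not that of the single lists. Chromosome 13 had 16.3% to 19.7% of its bases in a list, whereas chromosome 14 had 16.4% to 25.1% in a list and 1.78% in members. The nearest other member was at a median of 2750 bp, and 74.4% of members had another within 10 kb. Of 2473 windows of 1 Mb, 183 (7.40%) held 50% of the members' length and 344 held none.

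The window with the most member bases was that from 147000001 to 148000000 on chromosome 4, with 781 kb in members and 9 zinc finger genes of the list. It was covered over 813, 828 and 836 kb in control and 818, 819 and 849 kb in Alb-D2KO at P1, P5 and adult. The windows ranked 2 and 4 were those starting at 66000001 (761 kb) and 65000001 (618 kb) on chromosome 13, with 0 and 1 genes of the list. A zinc finger gene under another symbol, such as a Gm model, would not be counted in these numbers. The third, starting at 94000001 on chromosome 5, had 665 kb in members and no zinc finger gene of the list. It holds BC061212, AA792892 and a series of Gm models. It was covered over 925 to 928 kb in the neonatal lists and over 795 and 817 kb in the adult lists. The fifth, starting at 146000001 on chromosome 4, had 602 kb in members and 6 zinc finger genes of the list. It was covered over 631 to 655 kb in the lists.

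**Figure D4:**
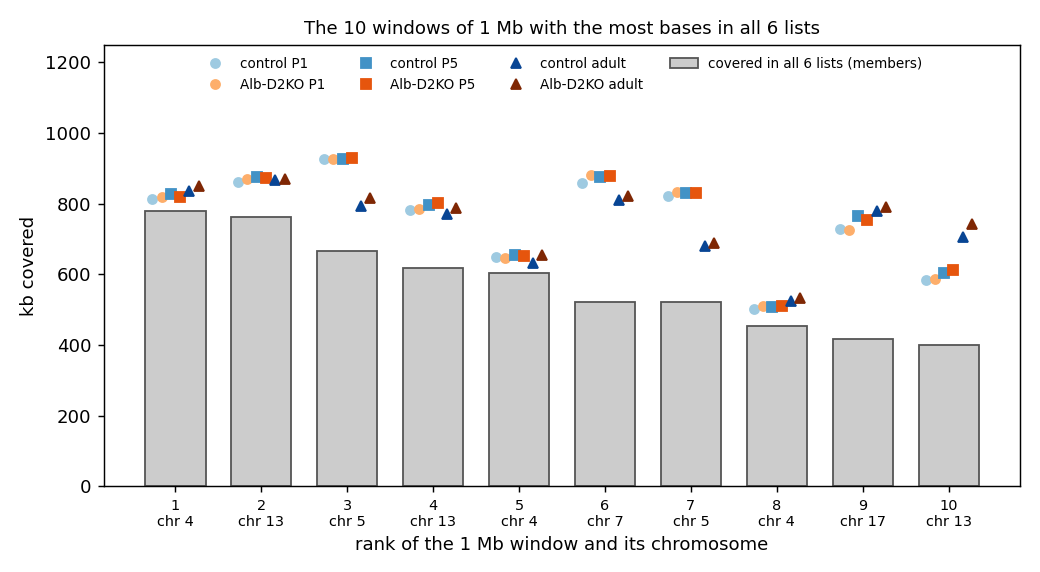
Kilobases covered (vertical axis) in the 10 windows of 1 Mb with the most bases in members, in order of rank with their chromosome (horizontal axis). Bars are bases in all 6 lists and points are the single lists (1 library each). The first window holds 781 kb in members and 813 to 849 kb in the lists, and in the third the adult lists (795 and 817 kb) lie under the neonatal lists (925 to 928 kb).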

How the data were processed

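H3K9me3 ChIP-seq of mouse liver was deposited as peak lists. Per the study's methods and the labels, the authors aligned reads to mm10 with BWA in Partek Flow, called broad peaks with MACS2 at a p-value limit of 0.05 over the input of the same group, and annotated them with GENCODE M24. The deposited −log10 p-value and −log10 q-value of a peak and its fold enrichment (a linear ratio over input) are the authors' own and were used only to describe or filter peaks. How reads with several positions were treated, and whether repeated sequencing runs or the several P1 samples of a genotype were merged, is not given in the sources used here. Another 3 deposited lists hold the authors' own comparison of Alb-D2KO over control and were not used. The number of columns that match no sample was 0.

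Members were the autosomal bases inside a peak of all 6 lists over input, in intervals of at least 500 bp. Listed starts were read as 1-based and listed ends as exclusive, as for 99.8% of the 21671 annotated transcripts that could be matched, and for peaks this leaves an uncertainty of 1 base. Gene bodies, exons and transcription starts came from GENCODE M21 and letters, soft-masking and tRNA genes from RefSeq GRCm38, which is mm10. Copies of the central 50 bases were counted on both strands of chromosomes 1 to 19, X and Y. The lists give no read counts, so depth is unknown and no value was scaled for it. With 1 library per group no test was run. Shares have 95% Wilson intervals over members or genes. Gene lists were defined by symbol or by name. The text names the 5 longest members, the 5 with the highest value of the lowest −log10 p, the 10 protein-coding genes with the most member bases, the first 3 genes of each list, the first 5 windows of 1 Mb, Dio2 and Alb. The members and lists were chosen with earlier results of these data known, and Snrpn, the genes named in the third window and the searches for tRNA sites, tandem repeats and gene neighbours were chosen after values had been seen. The alternatives were minimum lengths of 200 and 1000 bp, limits of 1.3 and 2 on −log10 p, joining within 1000 bp, adding chromosome X, leaving out each list, and other definitions of gene overlap and copies. Scripts ran in Python 3.11.15 with numpy 2.4.6, pandas 2.3.3 and numba 0.67.0. Interval finding and the counting of copies of 50 bases were tested on simulated data, whereas the searches for linkers and tRNA sites were not.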

Additional observations from a re-analysis of the deposited data

Results flagged for a closer look

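Some differences between Alb-D2KO and control changed sign between ages. With 1 library per group none of these changes of sign was tested. The median log2 fold enrichment of the peaks holding the members, given as Alb-D2KO minus control, was -0.00016 in P1, 0.0075 in P5 and -0.00043 in adult livers. The spans from the 5th to the 95th percentile were -0.19 to 0.19, -0.18 to 0.19 and -0.21 to 0.20. These medians are a description and not a comparison of the genotypes, since the rule asked for a listed peak in both. The share of zinc finger gene-body bases in a list, also as Alb-D2KO minus control, was 0.216 percentage points in P1, -0.438 in P5 and -0.305 in adult livers. For olfactory receptors it was 1.13, 2.26 and -2.03 points in the same order, and for vomeronasal receptors 0.728, 0.834 and -1.27 points. For clustered protocadherins it was -3.28, 1.13 and 3.02 points, and for cytochromes P450 1.69, -0.171 and -1.15 points. Over all protein-coding genes, 9.07%, 9.79% and 8.80% of bases lay in a list in control at P1, P5 and adult. In Alb-D2KO this share was 9.22%, 10.1% and 8.45%, so it was also higher at P1 and P5 and lower in the adult. List lengths differed in the same way, at 461, 488 and 396 Mb in control and 472, 498 and 382 Mb in Alb-D2KO.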

How the results depend on the processing

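Each group had 1 library, so replicate spread could not be measured, depth is unknown, and repeated sequence limits where reads can be placed. No paired analysis was possible because every result describes regions defined over all 6 lists together and none comes from a test. The main values were 35874 members, 56.5 Mb, and shares of 23.6% of members in a gene body, 63.4% with a soft-masked majority, 44.6% with a repeated centre, 33.98% of zinc finger genes and 9.17% of protein-coding genes with a member. The cause of the changes given here was not tested.

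The strictest alternative changed the set most. With −log10 p above 2 in every list there were 1224 members of 9.32 Mb, of which 51.4% lay in a gene body, 56.5% had a soft-masked majority and 64.1% had a repeated centre, and 17.6% of zinc finger and 1.15% of protein-coding genes had a member. A limit of 1.3 gave 8.77% of protein-coding genes. A minimum length of 200 bp gave 59693 members and shares of 22.7% in a gene body, 58.8% soft-masked, 40.0% with a repeated centre and 11.5% of protein-coding genes. A minimum of 1000 bp gave 17741 members and 25.7%, 69.8%, 51.5% and 6.72%. Joining within 1000 bp gave 62.8% soft-masked and 43.3% repeated centres, and adding chromosome X gave 64.2% and 46.2%. Requiring at least 50% of the member in a gene gave 22.2%, and the central 100 bases in place of 50 were repeated in 32.004%.

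Leaving out 1 list at a time gave 41133 to 54861 members and 64.7 to 83.7 Mb, with shares of 22.0% to 23.8% in a gene body, 52.8% to 62.6% soft-masked, 34.7% to 43.4% with a repeated centre, 34.5% to 36.4% of zinc finger genes and 9.92% to 11.0% of protein-coding genes. The count moved by over 1.5 times without the adult Alb-D2KO list (54861), and the length stayed within 1.5 times. The soft-masked, repeated-centre and protein-coding shares left the main Wilson interval whichever list was left out, the gene-body share left it without either adult list, and the zinc finger share stayed inside it.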
